A study of Mus musculus with 6 samples.

Results

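The nuclear-encoded subunits of the mitochondrial respiratory chain were followed in sorted mouse mammary cells that did or did not express EGFP from the Lgr5 locus. They were taken by gene symbol, in families that name the subunits of complexes I to V (Nduf, Sdh, Uqcr, Cox and Atp5), leaving out Ndufa4l2. The RefSeq table held 89 such symbols. Of these, 83 had at least 1 probe among the 20887 named genes on the array, with 112 probes in all. There were 35 in complex I, 4 in complex II, 8 in complex III, 19 in complex IV, where Ndufa4 was counted, and 17 in complex V. The other 6 symbols (Ndufb1, Ndufb4b, Ndufb4c, Ndufa11b, Ndufs5-ps and Cox7c-ps1) were not analysed here, nor were the subunits encoded in mitochondrial DNA, which the symbols do not cover.

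Lgr5-positive cells were the Lin-CD24+CD29hi GFP+ cells of the gate called P4, and Lgr5-negative cells the Lin-CD24+CD29hi GFP- cells of the same gate, with 3 arrays per group. Both groups came from virgin C57/B6 mice that carry lgr5-egfp-ires-creert2, so the allele is shared and the sort alone separates the groups. The age of the mice and the markers behind Lin are not given in the labels. Each array set Cy5-labelled sample RNA against a Cy3-labelled reference, pooled RNA of 11 mouse cell lines, with no dye swap. Nothing in the labels says whether same-group arrays came from separate animals, so p-values measure the spread between these samples, which may be partly technical.

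The respiratory chain sits in the inner mitochondrial membrane. Complex I (NADH dehydrogenase) and complex II (succinate dehydrogenase) pass electrons to ubiquinone, complex III hands them to cytochrome c, and complex IV (cytochrome c oxidase) gives them to oxygen. Complexes I, III and IV pump protons, and complex V (ATP synthase) uses the resulting gradient to make ATP. Most subunits are encoded in the nucleus, and factors such as NRF1, GABP and YY1 are known to bind many of their promoters. The balance of respiration and glycolysis is a recurring question in the study of stem and progenitor cells, and basal mammary cells carry the capacity to regenerate a gland in transplants.

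Promoter windows are shown for 5 members that mark the ends of the patterns described further on. Cox6b1 and Cox6b2, isoforms of one complex IV subunit, had the second lowest and the highest group difference in that complex, Ndufa11 and Sdha had the highest and the lowest difference between replicate numbers 1 and 3, and Cox6a1 is a common isoform whose window holds matches to 2 of the motifs. Each window runs from 250 bases before to 50 bases after the gene's start in the RefSeq table of GRCm38.p6, 5′ to 3′ on the gene's strand. Capitals mark the matches on either strand to GCGCATGC (the NRF1 core), CCGGAAG (an ETS core that GABP can bind, CTTCCGG on the other strand) or AAGATGG (the YY1 core). The NRF1 core lies within GCGCATGCGC, a match on both strands, in Cox6a1 and Ndufa11. The windows lie at chr7:30626065-30626364 on the minus strand for Cox6b1, chr7:4753045-4753344 on the minus strand for Cox6b2, chr5:115348909-115349208 on the minus strand for Cox6a1, chr17:56717512-56717811 on the plus strand for Ndufa11 and chr13:74350191-74350490 on the minus strand for Sdha.
Cox6b1: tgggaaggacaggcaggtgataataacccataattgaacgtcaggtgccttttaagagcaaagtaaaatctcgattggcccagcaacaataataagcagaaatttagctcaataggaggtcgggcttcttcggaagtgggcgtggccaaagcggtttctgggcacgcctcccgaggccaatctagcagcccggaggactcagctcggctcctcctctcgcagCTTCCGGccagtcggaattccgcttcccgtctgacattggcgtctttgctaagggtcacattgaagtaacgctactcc
Cox6b2: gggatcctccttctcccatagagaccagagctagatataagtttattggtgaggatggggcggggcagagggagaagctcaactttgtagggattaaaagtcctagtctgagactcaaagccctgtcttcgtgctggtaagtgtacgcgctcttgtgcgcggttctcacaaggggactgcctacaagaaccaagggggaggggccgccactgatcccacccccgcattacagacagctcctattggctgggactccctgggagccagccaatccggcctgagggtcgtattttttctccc
Cox6a1: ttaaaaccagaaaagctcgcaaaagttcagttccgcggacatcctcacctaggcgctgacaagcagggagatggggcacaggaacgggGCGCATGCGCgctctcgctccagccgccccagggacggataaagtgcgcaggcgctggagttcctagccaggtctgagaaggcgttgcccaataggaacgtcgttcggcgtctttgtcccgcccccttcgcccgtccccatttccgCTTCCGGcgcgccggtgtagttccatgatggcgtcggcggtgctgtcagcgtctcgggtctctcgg
Ndufa11: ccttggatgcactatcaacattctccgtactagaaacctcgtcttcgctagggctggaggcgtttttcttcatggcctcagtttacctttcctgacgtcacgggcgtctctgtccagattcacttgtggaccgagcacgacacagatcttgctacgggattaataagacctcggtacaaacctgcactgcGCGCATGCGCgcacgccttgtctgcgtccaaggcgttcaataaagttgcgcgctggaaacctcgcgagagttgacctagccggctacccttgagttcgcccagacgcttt
Sdha: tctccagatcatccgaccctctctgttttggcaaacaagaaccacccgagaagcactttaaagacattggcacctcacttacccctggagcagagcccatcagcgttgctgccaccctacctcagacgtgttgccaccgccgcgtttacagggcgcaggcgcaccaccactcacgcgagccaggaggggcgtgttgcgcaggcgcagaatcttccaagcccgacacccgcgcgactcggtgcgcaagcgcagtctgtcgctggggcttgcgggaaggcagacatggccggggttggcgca

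Of the 83 members, 68 had a window in the table, with 73 windows between them. At least 1 of the 3 motifs was found in 32 of the 73 windows (43.8%), against 16.6% of all 32851 windows in the table. The NRF1 core was found in 10 (13.7%, against 2.71% of all windows), the ETS core in 17 (23.3%, against 8.86%) and the YY1 core in 11 (15.1%, against 6.34%). Among the windows printed, Cox6b1 held the ETS core, Cox6a1 the NRF1 and ETS cores and Ndufa11 the NRF1 core, while none of these letters occurred in the windows of Cox6b2 and Sdha. Set against the 12409 genes tested here that had a window, the gap was smaller, with at least 1 motif in 47.1% of the 68 member genes and in 25.6% of the genes tested. By motif these shares were 14.7% against 4.79% for NRF1, 25% against 15.9% for ETS and 16.2% against 7.65% for YY1. A match describes the sequence alone. Cox4i1, Cox4i2 and Cox6a2 had no window.

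Median Cy5 signal over all probes was 137 to 169 on the Lgr5-positive arrays and 200 to 278 on the Lgr5-negative arrays, over a median background of 64 to 76, and 0 spots were saturated. The subunits were far brighter. In Cy5 their median reached 8058, 12288 and 6262 in Lgr5-positive replicates 1, 2 and 3, and 14195, 17245 and 10801 in the Lgr5-negative ones. Of the 83 members, 81 passed the filter, which needed 3 or more arrays with Cy5 signal well above background, and 80 were well above background on all 6. The 2 that did not pass were Cox7b2 and Cox8c, isoforms known from testis, which were not well above background on any array. Their Cy5 signals lay between 65.5 and 100.5 on the Lgr5-positive arrays and between 75 and 120 on the Lgr5-negative arrays. All 9 basal epithelial markers, such as Krt5 and Krt14, were well above background on all 6 arrays. Lgr5 had a log2 ratio to the reference RNA of 4.87 ± 0.57 in Lgr5-positive cells and 3.40 ± 0.61 in Lgr5-negative cells (SD, n = 3 each), in the direction of the labels.

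The question was whether Lgr5-positive and Lgr5-negative cells of the gate differ in the transcripts of their respiratory chain. No difference was called for any of the 81 subunits tested. Log2 fold changes (Lgr5-positive minus Lgr5-negative) had a median of -0.07, against a median of 0.01 over all 15680 genes tested. Below 0 lay 58 members and above 0 lay 23. This count moved when 1 array was left out, which leaves its same-numbered array without a partner. Below 0 then lay 30 without Lgr5-negative replicate 1, 33 without Lgr5-positive replicate 3 and 71 without Lgr5-negative replicate 3. When both arrays of replicate number 1, 2 or 3 were left out, 45, 61 and 58 lay below 0. By complex the medians were -0.07 for I, -0.20 for II, -0.08 for III, -0.05 for IV and -0.03 for V. None of the 81 passed an absolute log2 fold change of 0.5, which 1921 of all genes did.

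With the group as the only term in limma, 0 of 81 members passed a Benjamini-Hochberg adjusted p of 0.05, where 96 genes, 0.612% of all tested, did. The lowest adjusted p of a member was 0.990, and 0 members had an unadjusted p under 0.05, against 8.2% of all genes. With the replicate number as a block, 0 of 81 members passed, against 7.72% of all genes, and the lowest adjusted p was 0.129, for Sdha. At an unadjusted p under 0.05 this fit held 8 members (9.88%), against 21.3% of all genes. They were Ndufb8, Ndufc2, Ndufa10, Sdha, Uqcrq, Cox6b1 and Cox8b, with fold changes below 0, and Cox6b2, with one above 0. Lgr5, whose locus drives the sorted EGFP, did not pass with the group alone either, at 1.47 (SE 0.40, adjusted p = 0.245 in limma). With the block Lgr5 passed (adjusted p = 0.0021 in limma). A missed threshold does not show that the groups were alike, so the intervals set the bound. With the group alone the 95% interval lay within 2-fold either way for 70 members (86.4%), against 70.5% of all genes, and with the block for 80 members (98.8%), against 90.8%.

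**Figure D1:**
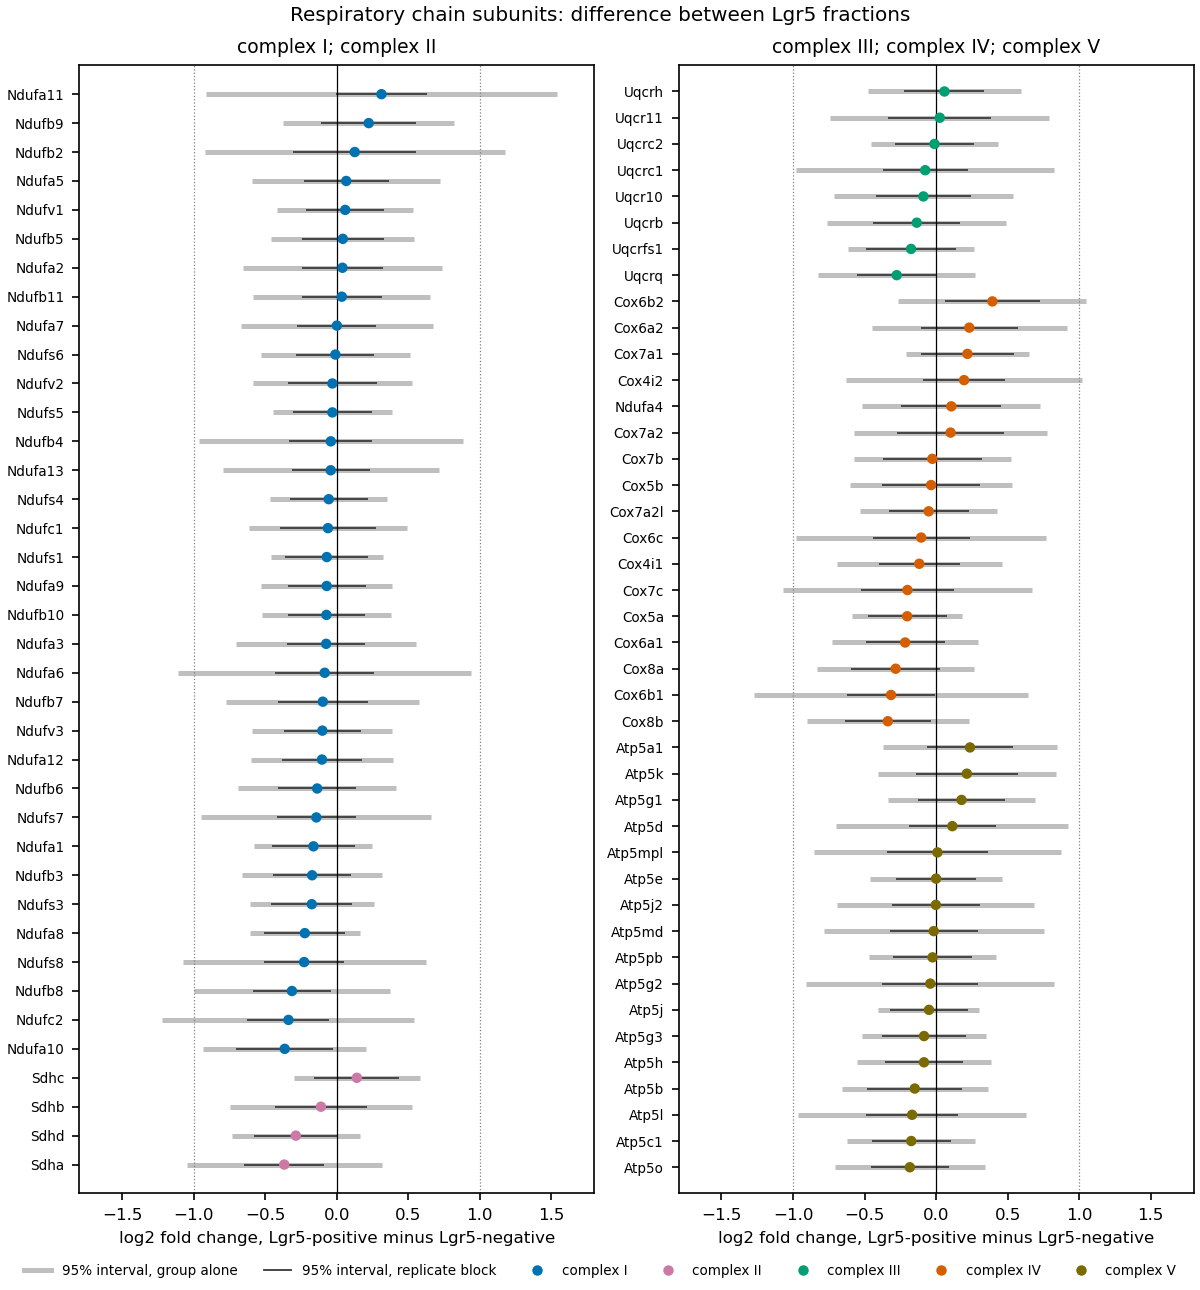
Log2 fold change of 80 of the 81 subunits, Lgr5-positive minus Lgr5-negative, ordered within complexes I to V. Points are estimates over 3 arrays per group, grey bars the 95% interval with the group alone and thin lines that with the replicate block, and dotted lines mark 2-fold. The points drawn lie between -0.37 and 0.39, and the thin lines drawn stay within 2-fold, which the interval of the 1 subunit not drawn passes.

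The groups overlapped on the arrays in all 81 members. The Lgr5-positive arrays stood wholly above the Lgr5-negative ones in 0 members, against 4.06% of all genes, and wholly below in 0, against 8.14%. Within the 3 pairs of same-numbered arrays, the Lgr5-positive array was the lower one each time in 30 members (37%), against 21.8% of all genes, and the higher one each time in 7 (8.64%), against 22.5%. The 7 were Ndufa11, Ndufv1, Sdhc, Cox6b2, Cox4i2, Atp5a1 and Atp5g1. Across the 81 members the median difference was -0.13, -0.04 and -0.02 in pairs 1, 2 and 3. For comparison, the median standard error of a member was 0.24 without the block and 0.12 with it.

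These values depend on how an array is scaled. The loess used here makes the ratios of genes of like brightness average out on each array, so a shift shared by bright genes is removed. The subunits are bright: 71 of 81 (87.7%) were among the brightest 20% of the genes tested. When each array was only centred on its median ratio, the members had a median log2 fold change of -0.50 and all genes one of -0.29, so the members lay 0.21 below. Among those brightest genes the median under centring was -0.50 for the 71 members and -0.43 for all, and 55 of the 71 lay below -0.43. Under loess the same values were -0.07 for the members and 0.02 for all. With centring and the replicate block together, 58 of the 81 members (71.6%) passed as lower in Lgr5-positive cells, among 36.9% of all genes, of which 128 were higher and 5662 lower. The scanner's own ratios gave the members a median of -0.03 and called 0 of them, with or without the block. The median Cy5 signal of the members was lower on the Lgr5-positive array in each pair, as was that of all probes, and the part of signal strength in the centred values was not tested.

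**Figure D2:**
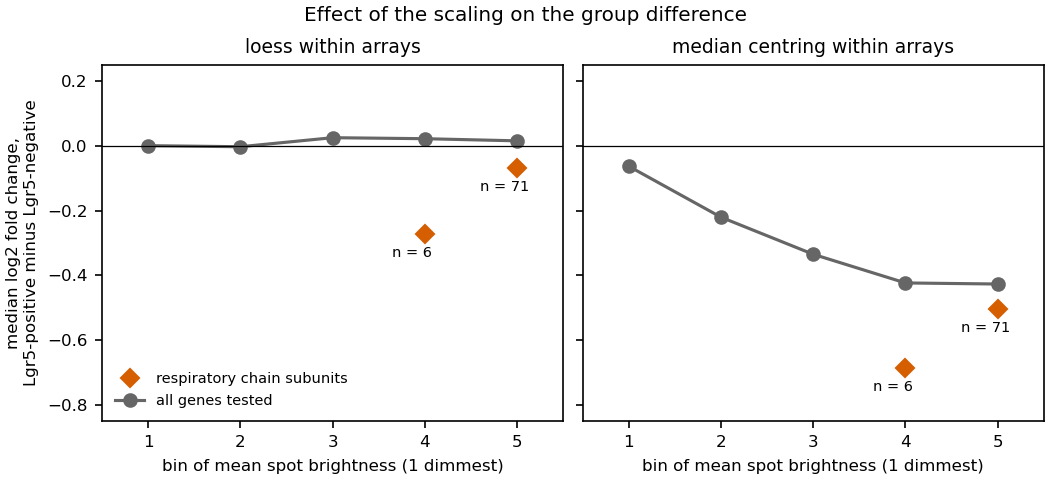
Median log2 fold change, Lgr5-positive minus Lgr5-negative, in 5 equal bins of mean spot brightness, for the subunits (diamonds, where a bin holds at least 6 of them) and all genes tested (circles), after loess and after median centring. After loess the medians of all genes lie near 0 at each brightness, while after centring they run down to -0.43 in the brightest bin, which holds 71 of the 81 subunits.

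Complex I takes electrons from NADH, through a peripheral arm with flavin and iron-sulfur clusters and a membrane arm that pumps protons. Of its 35 subunits, 26 had fold changes below 0. Ndufa10, an accessory subunit of the membrane arm, had log2 ratios to the reference of -0.77, -1.31 and -1.51 in Lgr5-positive replicates 1, 2 and 3, and -0.64, -1.01 and -0.85 in Lgr5-negative cells. It was lower in Lgr5-positive cells in all 3 pairs, with a difference of -0.36 (SE 0.24), and the groups overlapped.

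At the other end stood Ndufa11, an accessory subunit of the membrane arm that lies at the contact with complex III in supercomplexes, whose NRF1 core is capitalised above. It had 2.53, 1.68 and 1.18 on the Lgr5-positive arrays and 2.41, 1.41 and 0.63 on the Lgr5-negative arrays. The difference was 0.31 with an SE of 0.52 with the group alone and 0.13 with the block, since both arrays numbered 1 were high and both numbered 3 low. Ndufb9, another accessory subunit of the membrane arm, had -0.55, -0.91 and -0.71 against -0.48, -1.30 and -1.06, a difference of 0.22 (SE 0.25) that was above 0 in 2 of the 3 pairs. Core subunits that carry flavin or iron-sulfur clusters had differences of 0.06 for Ndufv1, which binds NADH, -0.03 for Ndufv2, -0.07 for Ndufs1, -0.14 for Ndufs7 and -0.23 for Ndufs8.

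Complex II, which is also the succinate dehydrogenase of the TCA cycle, has 4 subunits, all nuclear-encoded. Sdha, the flavoprotein that oxidises succinate, had -1.17, -0.62 and -0.51 in Lgr5-positive cells and -0.90, -0.15 and -0.15 in Lgr5-negative cells. Each Lgr5-positive array was lower than its same-numbered partner, with pair differences of -0.27, -0.47 and -0.36 and a mean difference of -0.37 (SE 0.29; SE 0.12 with the block, where the adjusted p was 0.129). Sdhd, a membrane anchor, had -1.37, -1.56 and -1.85 against -1.26, -1.24 and -1.43, a difference of -0.29 (SE 0.19) with the same direction in all pairs. Sdhc, the other anchor, went the other way in all 3 pairs, by 0.14 (SE 0.19), with -0.39, -0.45 and -0.55 against -0.41, -0.52 and -0.88. Sdhb, the iron-sulfur subunit, had 0.15, -0.17 and -0.30 against 0.49, -0.08 and -0.40, a difference of -0.11 (SE 0.27). The 4 subunits of this complex thus did not share a direction, and none passed the test.

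In complex III, the 8 subunits lay between -0.28 and 0.06. Uqcrq, a small accessory subunit, had -0.32, -0.86 and -0.68 in Lgr5-positive cells and -0.0036, -0.55 and -0.48 in Lgr5-negative cells, a difference of -0.28 (SE 0.23) with the same direction in all pairs. Uqcrfs1, the Rieske iron-sulfur protein that takes electrons from ubiquinol, had -0.65, -0.33 and -0.58 against -0.23, -0.25 and -0.56, a difference of -0.18 (SE 0.18). The core proteins Uqcrc1 and Uqcrc2 had differences of -0.08 and -0.01. Uqcrh, the hinge protein beside cytochrome c1, and Uqcr11, an accessory subunit, were the only 2 above 0 in this complex, at 0.06 (SE 0.22) and 0.03 (SE 0.32). Uqcrh lay above the reference RNA on every array, at 1.30, 1.50 and 0.95 in Lgr5-positive cells and 1.34, 1.36 and 0.88 in Lgr5-negative cells.

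Complex IV is where tissue-restricted isoforms occur, and its 17 tested subunits had the widest spread of the 5 complexes other than complex II, with an SD of 0.22 across subunits against 0.17 for all members. The restricted isoforms that passed the filter were Cox4i2 (known from lung and from hypoxia), Cox6a2, Cox7a1 and Cox8b (known from striated muscle) and Cox6b2 (known from testis). Their median difference was 0.22, with 4 of 5 above 0, and that of the 7 common isoforms was -0.12, with 6 of 7 below 0. None of these 12 passed the test, and the values of the lists overlapped, at -0.34 to 0.39 for the restricted and -0.32 to 0.10 for the common isoforms. These signs are those under loess. With median centring 80 of the 81 members lay below 0 and only Cox6b2 above it, so the split by sign was not kept. Cox6b2 had the highest value of all members, with 1.02, 1.39 and 0.71 in Lgr5-positive cells and 0.92, 0.84 and 0.18 in Lgr5-negative cells. This gave a difference of 0.39 (SE 0.28 with the group alone and 0.14 with the block, adjusted p = 0.164 with the block in limma). Unlike most subunits, Cox6b2 was dim, in brightness bin 2 of 5 (1 dimmest), and with median centring it had a difference of 0.08. Its common counterpart Cox6b1 had 0.40, 0.21 and -0.81 against 0.76, 0.32 and -0.33. That is a difference of -0.32 (SE 0.40 and 0.13, adjusted p = 0.218 with the block), with all 3 pairs below 0. The pair differences of Cox6b1 were -0.35, -0.11 and -0.48, but its sign turned when 1 array was left out without its partner. Without Lgr5-positive replicate 3 it was 0.06, on the same side as Cox6b2. When single arrays were left out, Cox6b2 stayed between 0.16 and 0.56. The difference between the isoforms was not tested.

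Cox4i2 had 1.70, 0.79 and 1.18 in Lgr5-positive cells and 1.56, 0.46 and 1.07 in Lgr5-negative cells, a difference of 0.20 (SE 0.35), and Cox4i1 one of -0.12 (SE 0.24). Cox6a2 lay far below the reference RNA on each array, at -1.96, -2.30 and -2.52 against -1.94, -2.82 and -2.70, with a difference of 0.23 (SE 0.29). Its common counterpart Cox6a1 had a difference of -0.22 (SE 0.21), with -0.39, -0.92 and -0.66 against -0.26, -0.71 and -0.37. Cox7a1 had a difference of 0.22 (SE 0.18), while Cox7a2 had 0.10 and Cox7a2l, which takes part in joining complexes III and IV, -0.05 (a dimmer Cox7a2l probe gave -0.35). Cox8b, which was well above background on only 1 Lgr5-positive and 2 Lgr5-negative arrays, had 0.20, 0.01 and -0.21 against 0.74, 0.29 and -0.0022, a difference of -0.34 (SE 0.24). Cox8a lay at -0.28 (SE 0.23) and Cox7b at -0.03. The muscle isoforms thus had differences of both signs. Of the striated muscle markers, Acta1, Mb and Tnnt3 passed the filter and Ckm, Myh1, Myh4 and Actn3 did not. Cy5 signal, normalized between arrays and summed over all 7, was 4630 to 7541 in Lgr5-positive and 4231 to 4995 in Lgr5-negative cells. Its part in the muscle isoforms was not tested.

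ATP synthase, complex V, joins a catalytic head to a rotor in the membrane. All 17 of its subunits were tested, with differences of -0.18 to 0.24, and the interval of each of the 17 lay within 2-fold even with the group alone. Atp5a1, the alpha subunit of the head, had -0.48, 0.04 and 0.33 in Lgr5-positive cells and -0.55, -0.18 and -0.10 in Lgr5-negative cells, a difference of 0.24 (SE 0.26) that was above 0 in all 3 pairs. Atp5b, the catalytic beta subunit that pairs with alpha, had a difference of -0.15 (SE 0.21). Atp5k, a small membrane subunit, had -0.10, -0.43 and -0.30 against 0.04, -0.79 and -0.73, a difference of 0.21 (SE 0.26) with pairs of both signs. Atp5o, which ties the head to the outer stalk, and Atp5c1, the gamma subunit of the central shaft, had the lowest differences, at -0.18 (SE 0.22) and -0.17 (SE 0.19). The 3 genes that encode the c subunit of the rotor ring had 0.18 (Atp5g1), -0.04 (Atp5g2) and -0.08 (Atp5g3).

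In most subunits the values varied more with the replicate number than with the fraction. For each gene the sum of squares over the 6 arrays was split into a part for the group, with 1 term, and a part for the replicate number, with 2. In the members the median share was 5.19% for the group and 88.1% for the replicate number, against 9.47% and 71.1% over all genes, and the replicate number took the larger part in 76 of 81 members (93.8%), against 79.7% of all genes. A test of the replicate number in the blocked limma fit called 36 members (44.4%), against 37.4% of all genes. Arrays numbered 1 and 3 were farthest apart, and this contrast was chosen after seeing the data. Both arrays numbered 1 stood above both numbered 3 in 67 members (82.7%), against 31.3% of all genes, with a median difference of 0.50 in the members and -0.01 over all genes. The member medians were -0.01, -0.24 and -0.42 in Lgr5-positive replicates 1, 2 and 3, and 0.14, -0.18 and -0.39 on the Lgr5-negative arrays.

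**Figure D3:**
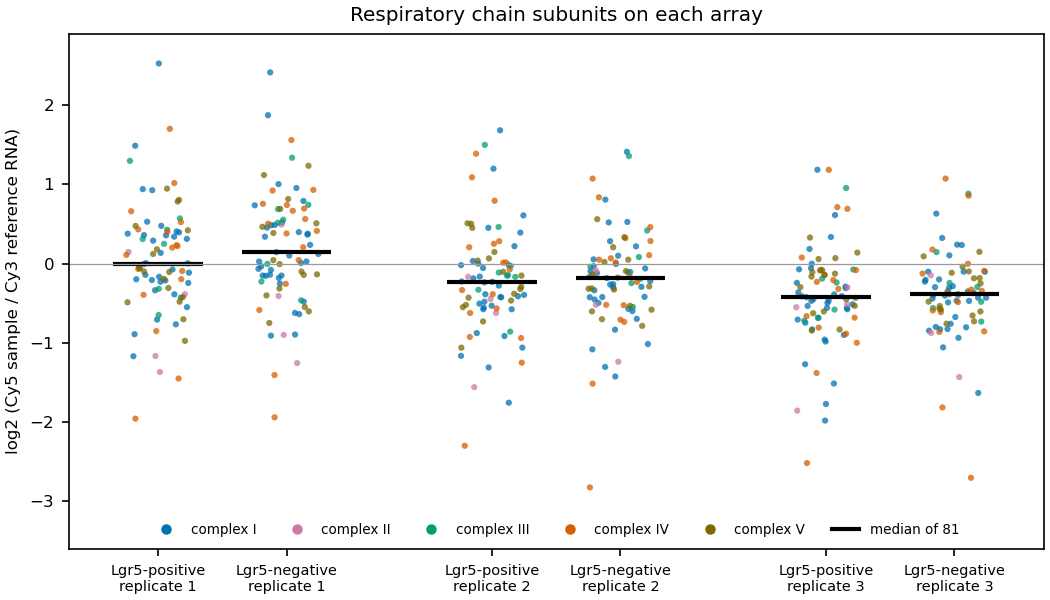
Log2 ratio of each of the 81 subunits to the reference RNA on each array, with the 2 arrays of a replicate number side by side. Points are subunits coloured by complex, and black lines are medians. The medians are highest on the arrays numbered 1 (-0.01 and 0.14) and lowest on those numbered 3 (-0.42 and -0.39).

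Not all subunits took part. Ndufa11 had the largest difference between numbers 1 and 3, at 1.56 (adjusted p of the replicate number 0.0034 in limma). By complex the median of this difference was 0.54 for I, 0.32 for II, 0.52 for III, 0.52 for IV and 0.40 for V. In 8 members (9.88%), against 29% of all genes, both arrays numbered 3 stood above both numbered 1. They were Ndufs1 (-0.14), Sdha (-0.70), Uqcrc2 (-0.20), Cox7a2l (-0.11), Atp5a1 (-0.63), Atp5pb (-0.19), Atp5g3 (-0.30) and Atp5b (-0.36). Of these, Sdha and Atp5a1 passed the test of the replicate number, with adjusted p = 0.017 and 0.041. The alpha and beta subunits of the ATP synthase head thus lay on the same side, away from most of the chain.

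**Figure D4:**
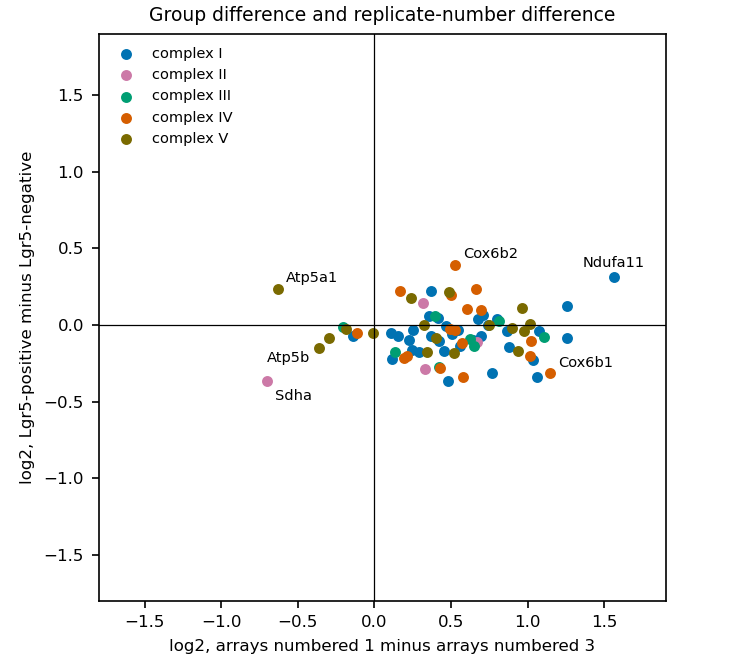
Difference between the Lgr5 fractions (vertical, log2, Lgr5-positive minus Lgr5-negative) against the difference between arrays numbered 1 and 3 (horizontal, log2) for 80 of the 81 subunits, both axes on the same scale. The points spread between -0.70 and 1.56 across and between -0.37 and 0.39 up, and in 67 of the 81 subunits both arrays numbered 1 stood above both numbered 3.

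The other genes of the pathway were read from lists of their own. Of 14 complex I assembly factors, 0 passed either fit (median 0.03), with Foxred1 at -0.28 and Ndufaf3 at -0.27, and of 24 tested assembly factors for complexes II to V 0 passed (median -0.01), with Sdhaf1 at -0.57 and Uqcc3 at -0.31. None of 18 genes of the TCA cycle and pyruvate entry passed (median 0.02, with Suclg1 at -0.30 and Dlst at -0.26), and none of 16 electron carriers and ADP/ATP exchangers did (median -0.03, with Etfa at -0.28 and Etfdh at 0.21). Of 11 tested genes for the upkeep and expression of mitochondrial DNA, 0 passed (median 0.06), with Polg2, the accessory subunit of the mitochondrial DNA polymerase, at 0.44 and Tfam, which packages that DNA, at -0.33. Of 8 tested regulators of respiratory genes 0 passed (median 0.02). Gabpb1, which partners the GABP DNA-binding subunit, lay at -0.34, Pprc1 at 0.37 and Nrf1 at -0.01. At an unadjusted p under 0.05 in limma, 0 genes of these 6 lists passed with the group alone, against 8.2% of all genes. With the block 3, 3, 0, 1, 3 and 2 did, in the order given, against 21.3% of all genes. The coactivators Ppargc1a and Ppargc1b were well above background on only 2 arrays and 1 array and were not tested.

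The mitochondrial ribosome, which translates the subunits encoded in mitochondrial DNA, had a median of -0.12 over 77 tested proteins, with 62 below 0. With the group alone 0 passed in limma (1 at an unadjusted p under 0.05), and with the block 1 did, Mrpl38 at -0.66 (adjusted p = 0.036 in limma). The test of the replicate number called 46 of the 77, against 37.4% of all genes, with a median of 0.56 between numbers 1 and 3. Cytosolic ribosomal genes, picked by a symbol pattern that also takes in S6 kinases, had a median of -0.05 over 97 genes. The 1 gene of this list that passed, with the block only, was the kinase Rps6ka3 at -0.84 (adjusted p = 0.038). Among the 18 TCA cycle genes that test called 2, with a median of -0.06 between numbers 1 and 3. Among 9 tested hypoxia genes, 0 passed with the group alone (2 at an unadjusted p under 0.05), and 2 fell with the block, with a list median of -0.01 (4 above 0 and 5 below). They were Ndufa4l2, a hypoxia-induced relative of Ndufa4 that is left out of the members, at -0.86 (adjusted p = 0.020), and Egln3, a prolyl hydroxylase that acts on HIF, at -0.60 (adjusted p = 0.039). Other genes of this list lay on the other side without passing, with Car9, a carbonic anhydrase, at 0.50 and Vegfa, a growth factor for vessels, at 0.33, each above 0 in all 3 pairs (adjusted p = 0.084 and 0.159 with the block in limma). Ndufa4 itself lay at 0.11 (SE 0.26).

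Markers of other cell types moved with the fractions while the subunits were not called. Of 11 endothelial markers, 3 fell with the group alone (Egfl7, Plvap and Tie1) and 8 with the block, with a median of -2.15. Only 1 of them, Kdr, lay above 0, at 0.18. Cy5 signal, normalized between arrays and summed over the 11, was 11528 to 31084 in Lgr5-positive and 99617 to 178782 in Lgr5-negative cells, with no overlap. Of 7 tested pericyte markers 0 fell with the group alone and 2 with the block (Notch3 and Rgs5). The list median was -0.42, with 1 above 0 (Higd1b at 0.18), and summed signals were 5086 to 6496 against 5836 to 7990. Fibroblast markers gave 0 with the group alone and, with the block, 4 lower and 1 higher of 8 (sums 33281 to 34147 against 44783 to 54051). Luminal markers gave 0 and 3 lower of 9 (sums 42901 to 52823 against 44740 to 81290), and leukocyte markers 0 and 1 lower of 6 (sums 4322 to 7721 against 5052 to 8041). Adipocyte markers gave 0 of 6 in either fit, with sums of 36952 to 96886 against 109756 to 138252. Their fold changes did not share the direction of the sums, with a median of 0.09, 5 above 0 (Cfd at 1.58 the highest) and 1 below (Fabp4 at -0.86). Adipoq was well above background on only 1 array. Of 9 basal markers 0 rose with the group alone and 3 with the block (Oxtr, Krt17 and Cnn1; median 0.36), with sums of 475485 to 573321 against 313340 to 499036. Over all genes, 0.612% passed the adjusted threshold with the group alone and 7.72% with the block. At an unadjusted p under 0.05 in limma with the group alone, 10 endothelial, 2 pericyte, 4 fibroblast, 3 luminal, 2 leukocyte, 1 adipocyte and 3 basal markers passed, against 8.2% of all genes. In such bulk samples fewer cells of a type and less RNA per cell cannot be told apart, and the part of these cells in the subunits' values was not tested.

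A further 29 probes of 22 members passed the filter, beside the brightest probe that stood for each gene. Their differences between the fractions lay between -0.43 and 0.27, with the same sign as the brightest probe in 23 of 29 and a median absolute gap of 0.08. The widest gap was 0.30, for Cox7a2l. The members lie on 19 chromosomes, with at most 8 on one (chromosome 7, where Cox6a2, Cox6b1, Cox6b2, Cox7a1 and Cox8b all lie).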

How the data were processed

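RNA from 3 Lgr5-positive and 3 Lgr5-negative samples was hybridised to 6 Agilent 2-colour arrays on 1 slide, with the sample in Cy5 and the reference RNA in Cy3. The authors deposited scanner files made with Feature Extraction 11.0 per the submitters' processing notes (11.0.1.1 per the file headers), which hold the median intensity and background of each spot and a log10 ratio of processed signals. The authors also deposited 1 table of log2 ratios, centred per probe, with column medians of -0.05 to 0.03 and correlations of 0.920 to 0.950 with the scanner's ratios centred likewise; why the rest differ is unknown.

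Median signals were corrected with normexp (offset 50) and normalized by loess within each array (limma 3.58.1, R 4.3.3), giving weight 0 to control spots and flagged outliers. Spots of a probe were averaged. For the marker sums alone, spot brightness was also quantile-normalized between arrays after loess. The resulting Cy5 values were summed over all listed markers with a probe, whether or not they passed the filter. Probes were named through RefSeq transcripts with a table of GRCm38.p6, used for names and promoter windows, since the arrays are annotated on mm9. The brightest probe well above background in Cy5 on at least 3 arrays stood for a gene, which left 15680 genes. The test was limma's lmFit with eBayes, two-sided, with Benjamini-Hochberg adjustment over all genes tested. The script was tested on simulated data. Members, lists and tests were chosen with earlier results of these data known.

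Named members were the 2 highest and 2 lowest of each complex and the isoform pairs of complex IV, and in each list the genes past the threshold or else the 2 with the lowest p. Of the 81 tested, 1 is counted but not reported here by itself. Other genes named were chosen after their values were seen. Arrays with the same replicate number deviated together from their group means (correlations across genes of 0.810, 0.819 and 0.675), so by a criterion of over 0.1 in every pair the numbers pair the arrays, and values with the replicate number as a block are given beside the others. Each pair also lay side by side on the slide, the Lgr5-positive array first, so the effects of place and fraction cannot be told apart there. Effects of place and of replicate number cannot be told apart either. The number of arrays limits the precision.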

Additional observations from a re-analysis of the deposited data

How the results depend on the processing

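The count of 0 of 81 subunits called held with the replicate block and under every other alternative run but one, the replicate block with median centring, where 58 were called lower in Lgr5-positive cells. The members' median log2 fold change, -0.07 as reported, was -0.50 with median centring, with or without the replicate block, where that of all genes was -0.29. Under the other settings that kept all arrays it lay between -0.07 and -0.03. Leaving out arrays or pairs moved it between -0.20 (without Lgr5-negative replicate 3) and 0.13 (without Lgr5-negative replicate 1). It was -0.17 without Lgr5-positive replicate 1 and 0.04 without Lgr5-positive replicate 3. The sign thus turned when some single arrays were left out without their same-numbered partner. When both arrays of replicate number 1, 2 or 3 were left out, the median stayed below 0, at -0.03, -0.07 and -0.07.

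The count of all genes called, 96 as reported, was 1210 with the replicate block, 9 with median centring, 5790 with the replicate block and median centring, 738 with the replicate block and the scanner's ratios, 44 among genes well above background on all 6 arrays and 312 with array weights. With the group alone, leaving out arrays or pairs gave 0 to 371. The count was 0 without Lgr5-positive replicate 1 or 3 and without the pair of replicate 2 or 3. It was 5 without Lgr5-negative replicate 2, 21 without Lgr5-negative replicate 3 and 371 without Lgr5-negative replicate 1. With the block, leaving out the pair of replicate 1, 2 or 3 gave 1397, 326 and 854. The causes were not tested. For the 28 named members, 363 values came from settings that kept all arrays. The sign differed from the reported one in 29 of these, and 15 members kept their sign throughout. Leaving out 1 array turned the sign of 10 of the 28, namely Ndufa11 (-0.11 to 0.78), Sdhb (-0.31 to 0.13), Uqcr11 (-0.21 to 0.36), Uqcrh (-0.10 to 0.21), Cox4i1 (-0.26 to 0.09), Cox4i2 (-0.09 to 0.46), Cox6b1 (-0.60 to 0.06), Cox7a2 (-0.15 to 0.37), Cox7a2l (-0.19 to 0.05) and Cox7b (-0.17 to 0.17). Of these, Ndufa11, Cox4i1, Cox4i2 and Cox6b1 had the same sign in all 3 pairs of same-numbered arrays. The other 18 kept their sign but moved in size, as Atp5a1 did (0.05 to 0.46). Cox7b2, Cox8c and, on some arrays, Cox8b were not well above background.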

Other observations

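The subunits also differed in where they stood against the reference RNA, a comparison that carries an uncorrected dye effect because no dyes were swapped. The mean log2 ratio over the 6 arrays was above 0 in 26 of the 81 members. It was above 1 in Ndufa11 (1.64), Uqcrh (1.22), Cox4i2 (1.13) and Ndufb2 (1.04), and below -1 in Cox6a2 (-2.37), Ndufb8 (-1.48), Cox7a1 (-1.47), Sdhd (-1.45) and Ndufa10 (-1.01). These ratios say how the gate's RNA compares with the mix of cell lines for one probe at a time and set no subunit's level against that of another.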
